A study of Mus musculus with 24 samples.

Results

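The DNA-binding factor CTCF and the cohesin complex shape chromosomes into loops and domains. Cohesin is a ring of the subunits SMC1A, SMC3 and RAD21 with STAG1 or STAG2 bound to it; it is loaded with the help of NIPBL, and PDS5A and PDS5B act on how long it stays on DNA. CTCF halts the moving ring at its binding sites, and the same complex holds sister chromatids together in dividing cells. The 9 genes that encode these proteins (Ctcf, Smc1a, Smc3, Rad21, Stag1, Stag2, Nipbl, Pds5a and Pds5b) were taken by name from the RNAseq tables, and all 9 were found among their 21909 gene symbols.

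RNAseq was measured in 3 samples of mouse embryonic stem cells (ESCs) and 3 of neural progenitor cells (NPCs), labelled as replicates 1 to 3 of each. The ESCs were of the E14 line, kept in 2i medium with LIF without feeder cells. The NPCs were derived from ESCs as embryoid bodies in suspension over 8 days in serum medium, with 2 µM retinoic acid in the last 4 days. The values were RPKM as the authors deposited them, in 1 table per cell type, and no batch is named that holds samples of both, so a batch and the cell type cannot be told apart. The maps of contact with the nucleolus used further below came from other cultures, of E14 lines with a transgene for H2B-Dam or H2B-Dam-NoLS (a DNA adenine methyltransferase on histone H2B, without or with a nucleolar signal) in 1 of the 2 Rosa26 alleles. These cells, as ESCs or as NPCs after 8 days, were induced over 15 h with doxycycline (100 ng/mL) together with Shield1 (1 µM), whereas the RNAseq samples carry no such treatment in the labels. In bulk samples, fewer cells of a kind and less RNA per cell cannot be told apart either.

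Low RPKM values were whole multiples of 1 read once multiplied by the span of the gene from start to end, introns included (97.1% to 97.3% of values under 50 reads lay within 0.1 of a whole number, against 23.5% to 25.6% with exonic length). The tables thus divide by the span of a gene, and long genes with many introns have low RPKM. Levels of different genes were therefore compared as RPKM per exonic kilobase, and ratios between genes are given on both scales. The steps gave 30778225 to 34050072 reads in the ESC samples and 27261340 to 32295717 in the NPC samples. Reads at listed genes came to 99.56% to 99.64% of these totals, but in ESC replicate 3 to 30888647, or 100.36%. Its total of 30778225 is therefore not exact, for a reason that was not tested. Each of the 9 genes had 1309 reads or more in every sample.

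ESC replicate 3 stood apart from the other samples. Its RPKM values summed to 139988, against 104016 and 105859 in ESC replicates 1 and 2. Over genes with reads, its difference from replicates 1 and 2 was 334 and 310 times that of counting noise (chi-square per degree of freedom), against 6.29 between replicates 1 and 2 and 3.21 to 9.16 between NPC samples. Its reads were shifted from long to short transcripts. In genes with under 1 kb of exonic sequence the median log2 ratio of replicate 3 over the mean of replicates 1 and 2 was 0.92 (194 genes), whereas in genes over 8 kb it was -0.90 (2322 genes).

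The 9 genes have long transcripts and were all lower in ESC replicate 3 than in ESC replicates 1 and 2. The ring subunits and Ctcf lie in the class of 4 to 6 kb, where the median log2 ratio was -0.29, and had -0.26 (Smc1a), -0.44 (Smc3), -0.67 (Ctcf) and -0.91 (Rad21). The other 5 genes lie in the class over 8 kb. There, Stag1 (-0.89) and Pds5b (-0.98) were near the median of the class and Stag2 (-0.43) was above it, whereas Pds5a (-1.26) and Nipbl (-1.77) were below it. Nipbl was at percentile 8.23 of its class. The comparisons of expression were also run without this replicate.

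**Figure D1:**
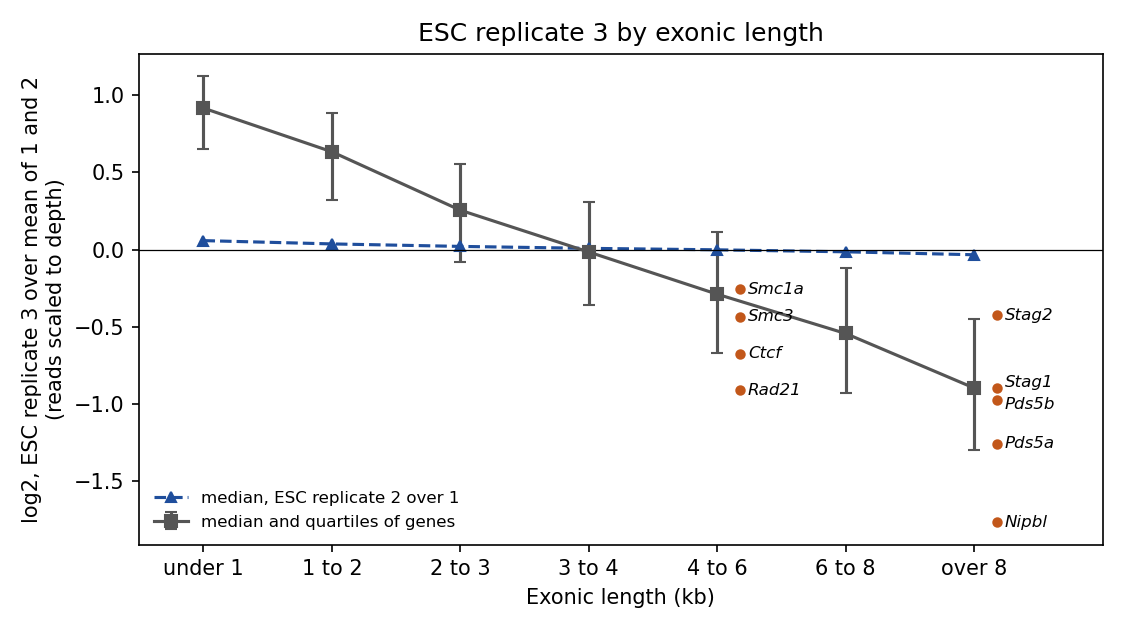
Log2 ratio of depth-scaled reads in ESC replicate 3 over the mean of ESC replicates 1 and 2 (vertical axis) by exonic length of the gene in kb (horizontal axis). Squares and bars show the median and quartiles of the genes of a class, triangles the median ratio of ESC replicate 2 over 1, and orange points the 9 genes; the median falls from 0.92 to -0.90 with length.

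Expression of Ctcf was 5.24, 4.86 and 3.16 RPKM in ESC replicates 1, 2 and 3, and 3.68, 3.72 and 3.59 RPKM in the NPC replicates. The groups overlapped because ESC replicate 3 was below every NPC sample, while the other ESC samples were above all of them. Over 3 samples each, the difference was within the spread (4.42 ± 1.11 against 3.66 ± 0.0633 RPKM, SD, n = 3; log2 fold change NPC over ESC -0.19 ± 0.16 SE on the scale of log2(RPKM + 1), limma adjusted p = 0.305). Without ESC replicate 3, Ctcf was 1.38-fold higher in ESCs (log2 fold change -0.37 ± 0.04 SE, limma adjusted p = 0.000116). That fit held only replicates 1 and 2 of the ESCs, and 44.0% of all tested genes were called higher in ESCs in it. Exons of Ctcf share 370 bases with Agrp and Gm5914 on the other strand, and since the use of strand in counting is not given in the sources used here, reads from these bases cannot be assigned to 1 gene.

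The ring subunits showed little difference between the cell types. Smc1a, one of the coiled-coil arms of the ring, had 5.68, 5.27 and 4.58 RPKM in ESCs and 5.29, 5.67 and 5.18 RPKM in NPCs. Smc3, its partner arm, had 6.36, 5.53 and 4.40 RPKM in ESCs and 5.44, 5.80 and 5.37 RPKM in NPCs. For both genes, the NPC samples lay within the range of the ESC samples, and ESC replicate 3 was the lowest of the 6 samples. Rad21, the cleavable subunit that closes the ring, had 13.5, 12.96 and 7.04 RPKM in ESCs and 13.2, 12.2 and 12.2 RPKM in NPCs. ESC replicate 3 was again the lowest sample, at 0.532 times the mean of the other ESC samples. None of these genes passed the test (log2 fold changes 0.05, 0.04 and 0.20, limma adjusted p = 0.659, 0.814 and 0.465), nor without ESC replicate 3, where the log2 fold changes turned to -0.02, -0.09 and -0.07 (adjusted p = 0.699, 0.226 and 0.21).

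The STAG paralogs, which bind RAD21 and occupy the same place in the complex, differed in their pattern. Stag1 had 0.457, 0.432 and 0.239 RPKM in ESCs and 0.364, 0.335 and 0.316 RPKM in NPCs. It was below 1 RPKM in every sample, which kept it out of the genes tested, although it had between 2660 and 5624 reads per sample over a span of 362 kb. Its NPC values lay between those of ESC replicate 3 and the other ESC samples. Stag2 had 0.738, 0.675 and 0.526 RPKM in ESCs and 1.75, 1.62 and 1.71 RPKM in NPCs. Every NPC sample was more than 2 times as high as every ESC sample. The level of Stag2 was 2.62-fold higher in NPCs (0.646 ± 0.109 against 1.69 ± 0.0688 RPKM, SD, n = 3; log2 fold change 0.71 ± 0.06 SE, limma adjusted p = 7.67e-05), and 2.39-fold higher without ESC replicate 3 (adjusted p = 1.95e-06).

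Nipbl, which encodes the cohesin loader, had 0.965, 0.915 and 0.276 RPKM in ESCs and 1.498, 1.47 and 1.49 RPKM in NPCs. The groups did not overlap, and ESC replicate 3 was at 0.294 times the mean of the other ESC samples. The NPC mean was 2.07-fold higher (0.719 ± 0.384 against 1.48 ± 0.0146 RPKM, SD, n = 3; log2 fold change 0.56 ± 0.16 SE, limma adjusted p = 0.0215). Without ESC replicate 3 it was 1.58-fold higher (log2 fold change 0.36 ± 0.03 SE, adjusted p = 2.07e-05). With all 6 samples the call was lost with quantile normalization (0.33, adjusted p = 0.0639) and in limma voom on the recovered reads (1.26 ± 0.48 SE, adjusted p = 0.0517), an alternative chosen after seeing the data. It was also lost without NPC replicate 1, 2 or 3 (adjusted p = 0.068, 0.0582 and 0.0607), where fewer samples were tested and the log2 fold change stayed at 0.55, 0.56 and 0.56. Over all alternatives with an adjusted p for Nipbl, it ranged from 1.27e-07 to 0.068.

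The PDS5 paralogs, which bind the ring and act with the release factor WAPL as well as in the protection of cohesion, differed likewise. Pds5a had 3.46, 3.18 and 1.39 RPKM in ESCs and 2.72, 2.66 and 2.64 RPKM in NPCs. Its NPC samples lay between ESC replicate 3 and the other ESC samples, and the means were 2.68 ± 1.12 and 2.67 ± 0.0446 RPKM (SD, n = 3; log2 fold change 0.05 ± 0.23 SE, limma adjusted p = 0.855). The direction of this value turned with quantile normalization (-0.09, adjusted p = 0.68) and without ESC replicate 3, where Pds5a was 1.24-fold higher in ESCs (-0.23 ± 0.04 SE, adjusted p = 0.0013). Exons of Pds5a share 374 bases with Gm42727 and Gm42729 on the other strand. Pds5b had 0.947, 0.873 and 0.463 RPKM in ESCs and 1.69, 1.63 and 1.66 RPKM in NPCs, and every NPC sample was above every ESC sample. Its level was 2.18-fold higher in NPCs (0.761 ± 0.261 against 1.66 ± 0.0298 RPKM, SD, n = 3; log2 fold change 0.61 ± 0.11 SE, limma adjusted p = 0.00284), and 1.82-fold higher without ESC replicate 3 (adjusted p = 6.58e-06).

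**Figure D2:**
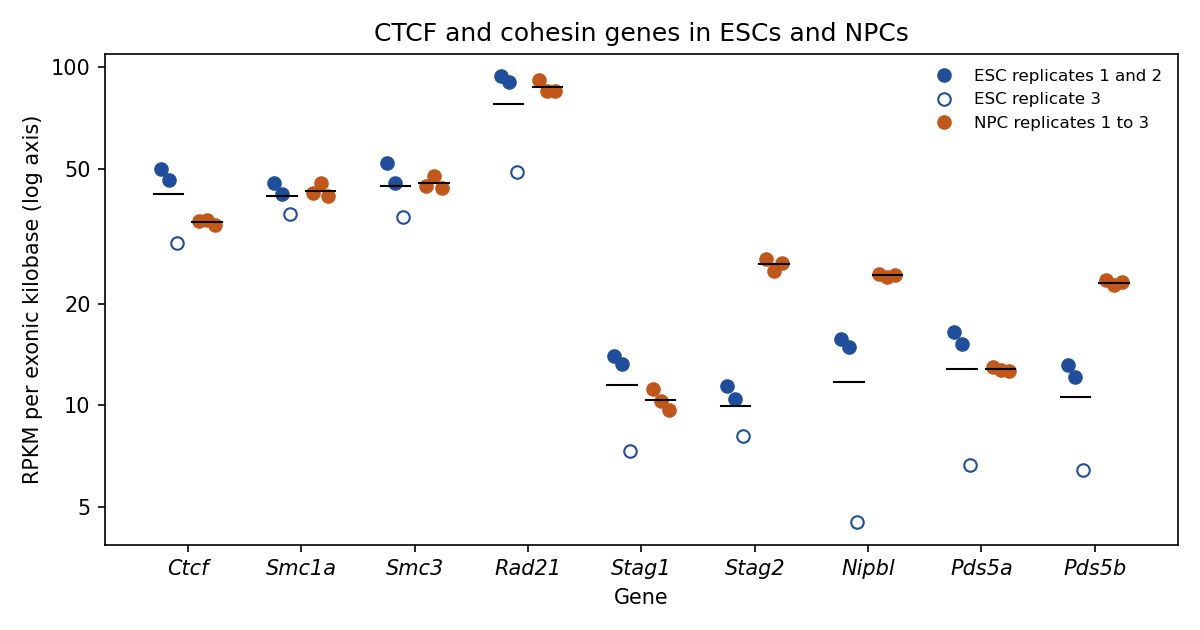
RPKM per exonic kilobase (vertical log axis) of the 9 genes (horizontal axis) in each ESC sample (blue, replicate 3 open) and NPC sample (orange), with the mean over 3 samples as a line. The NPC samples of Stag2, Nipbl and Pds5b lie above all ESC samples, and the groups of the other 6 genes overlap, with ESC replicate 3 lowest in all 9.

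In all, 8 of the 9 genes were tested and 3 of them were higher in NPCs, where 36.9% of the 7835 tested genes were called in that direction, whereas 0 were higher in ESCs (limma, against 33.3% of tested genes; at an unadjusted p under 0.05 likewise 0, and 0 in limma voom). Stag2, Nipbl and Pds5b were above 1 RPKM only in the NPC samples and entered the test through them, so that their count gives no support for a direction. All NPC samples were above all ESC samples in these 3 of the 8 genes, against 41.6% of tested genes, and the reverse held for 0, against 38.4%. The median log2 fold change of the 8 genes was 0.13, against 0.02 over all tested genes. This median gives no support for a direction either, since it includes these 3 genes. Without ESC replicate 3, 3 genes were higher in NPCs and 2 in ESCs, against 43.9% and 44.0% of tested genes, and the median of the 8 genes was -0.05.

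The recovered reads allowed all 9 genes to be tested on a scale without added RPKM, in limma voom over 12556 genes with a mean of at least 50 reads. With 6 samples, 0 of the 9 genes were higher in ESCs, against 28.8% of all genes, and 2 were higher in NPCs, against 43.6%: Stag2 (log2 fold change 1.41 ± 0.16 SE, adjusted p = 0.000203) and Pds5b (1.20 ± 0.28 SE, adjusted p = 0.00761). Stag1 did not pass (-0.09 ± 0.26 SE, adjusted p = 0.771). Without ESC replicate 3, Stag2, Nipbl and Pds5b were higher in NPCs (50.2% of genes) with log2 fold changes of 1.26, 0.66 and 0.87, and Ctcf, Stag1 and Pds5a were higher in ESCs (38.5% of genes) with -0.46, -0.39 and -0.31. The median log2 fold change over all genes was 0.29 with 6 samples and 0.19 without ESC replicate 3, relative to which the fold changes of these genes stand. That of the 9 genes was 0.12 and -0.08, below the median over all genes in both fits.

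Per exonic kilobase, Rad21 was the most abundant of the 9 genes in both cell types, with 77.8 ± 24.97 RPKM in ESCs and 87.3 ± 3.98 RPKM in NPCs (SD, n = 3), at percentiles 96.4 and 98.0 of genes with a level above 0. In ESCs it was followed by Smc3 (44.5 ± 8.09), Ctcf (42.2 ± 10.5) and Smc1a (41.5 ± 4.47), whose order lay within their spread. The levels of Pds5a, Nipbl, Stag1, Pds5b and Stag2 in ESCs, from 12.8 down to 9.99 RPKM, also did not differ beyond a spread that includes ESC replicate 3. In ESC replicates 1 and 2 alone these 5 genes stood in the same order in both samples, at 15.9 ± 0.924, 15.3 ± 0.582, 13.6 ± 0.548, 12.7 ± 0.728 and 10.9 ± 0.696 RPKM (SD, n = 2). There, Nipbl was above Stag1 and Pds5b above Stag2 beyond their spread, while Pds5a and Nipbl, and Stag1 and Pds5b, were not apart. In NPCs, Smc3 (45.4 ± 1.89) and Smc1a (43.1 ± 2.04) were close to each other and above Ctcf (35.0 ± 0.604). There, Stag2 (26.1 ± 1.06), Nipbl (24.2 ± 0.238) and Pds5b (23.1 ± 0.414) formed a middle class above Pds5a (12.8 ± 0.214) and Stag1 (10.4 ± 0.742). The summed level of the 9 genes was 313, 290 and 185 in ESCs and 313, 308 and 301 in NPCs, and thus set apart only ESC replicate 3.

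Ratios within a sample do not depend on the scaling between samples. The share of Stag1 in the sum of Stag1 and Stag2, per exonic kilobase, was 55.1%, 55.9% and 47.4% in ESCs and 29.2%, 29.2% and 26.9% in NPCs. The share of Pds5a in the sum of Pds5a and Pds5b was 55.7%, 55.6% and 50.8% in ESCs and 35.7%, 36.0% and 35.3% in NPCs. On this scale, added after seeing the data, both paralog pairs were near equal in ESCs and the second paralog prevailed in NPCs, in 3 of 3 samples and with no overlap between the groups. All annotated exons together came to 19.3 kb for Pds5a and 9.84 kb for Pds5b. Pds5a had more reads than Pds5b in every sample (10890 against 4414 in ESC replicate 1, 7597 against 6961 in NPC replicate 1). The near equality of this pair in ESCs and its order in NPCs thus rest on these lengths. On the deposited RPKM the shares fell by 19.5 and 15.6 percentage points from ESCs to NPCs (36.2% ± 4.28 to 16.7% ± 0.906 for Stag1 and 77.3% ± 2.01 to 61.7% ± 0.388 for Pds5a, SD, n = 3; two-sided exact permutation test, p = 0.1 each). Which paralog prevails thus depends on the scale, since Pds5a remained above Pds5b in NPCs and Stag1 below Stag2 in ESCs on the deposited RPKM, whereas the fall of both shares does not. The log2 ratio of Ctcf over the mean of Smc1a, Smc3 and Rad21 was -0.35, -0.36 and -0.43 in ESCs and -0.76, -0.74 and -0.73 in NPCs per exonic kilobase. On the deposited RPKM it was -0.70, -0.71 and -0.76 in ESCs and -1.11, -1.09 and -1.08 in NPCs. There it was lower by 0.37 in NPCs, more than the spread between replicates, and ESC replicate 3 was close to the other ESC samples in this ratio (two-sided exact permutation test, p = 0.1). With 3 against 3 samples 0.1 is the smallest p possible, and adjusted over the 3 ratios it remained 0.1 for each.

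The genes whose log2(RPKM + 1) followed Ctcf most closely over the 6 samples were D3Ertd254e, Brca1, Ttc9c, Brca2 and Ankrd10 (Pearson r = 0.999, 0.998, 0.997, 0.996 and 0.996). For Stag2, which had the largest fold change of the tested members, they were Peli1, Gzf1, Vezf1, Zfp867 and Uhrf2 (r between 0.999 and 1.00). Among the members, r with Stag2 was 0.97 for Pds5b and 0.89 for Nipbl, and r with Ctcf was highest for Pds5a at 0.83. These values were 0.999, 0.999 and 0.993 without ESC replicate 3, while r of Ctcf with Nipbl went from 0.13 to -0.97. These are descriptions over 6 samples that fall into 2 cell types, with ESC replicate 3 apart, so that any gene with the same difference between the cell types has a high r.

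Among 11 other regulators of mitotic cohesin, 9 were tested, 1 was higher in NPCs and 5 were higher in ESCs (against 36.9% and 33.3% of all tested genes), and their median log2 fold change was -0.68, against 0.02 over all tested genes. The counts were 1 and 8 without ESC replicate 3 (against 43.9% and 44.0% of all tested genes). Mau2, the partner of NIPBL in the loader, had 3.60, 3.96 and 2.78 RPKM in ESCs and 6.31, 6.04 and 5.97 RPKM in NPCs (log2 fold change 0.69, limma adjusted p = 0.00194). Wapl, which releases cohesin from DNA, had 5.94, 5.53 and 3.33 RPKM in ESCs and 2.36, 2.36 and 2.398 RPKM in NPCs (-0.79, adjusted p = 0.00794). The loader partner was thus higher and the release factor lower in every NPC sample than in every ESC sample.

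Besides Wapl, the genes of this list that were higher in ESCs with all samples were Esco2, Cdca5, Sgo1 and Sgo2a. Esco2, an acetyltransferase of SMC3 in S phase, had 12.5, 11.3 and 7.74 RPKM in ESCs and 2.23, 2.46 and 2.47 RPKM in NPCs (log2 fold change -1.74, limma adjusted p = 0.000128). Cdca5, which encodes the cohesion factor sororin, had 13.6, 14.5 and 16.0 RPKM in ESCs and 5.07, 4.96 and 5.14 RPKM in NPCs (-1.37, adjusted p = 1.78e-05). The shugoshins Sgo1 and Sgo2a, protectors of cohesion at centromeres, were also higher in ESCs (-0.92 and -0.55, adjusted p = 0.00014 and 0.000381), where Sgo2a passed the filter only through the ESC samples. Espl1 (separase), Pttg1 (securin) and Plk1 did not pass with all samples (-0.40, -0.68 and -0.27, adjusted p = 0.166, 0.0735 and 0.186) but were higher in ESCs without ESC replicate 3 (-0.68, -0.34 and -0.45, adjusted p = 9.33e-06, 0.0114 and 0.000821). Pttg1, a short gene, was 2.20 times as high in ESC replicate 3 as in the mean of the other ESC samples. Esco1 and Hdac8 were below 1 RPKM in all samples. On recovered reads Esco1 did not pass (-0.36, voom adjusted p = 0.131) but was higher in ESCs without ESC replicate 3 (-0.56, voom adjusted p = 3.81e-05), and Hdac8, a deacetylase of SMC3, was higher in NPCs (1.62, voom adjusted p = 3.23e-05).

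Other complexes of the same protein family were tested alike, and the counts stand beside 36.9% of all tested genes higher in NPCs and 33.3% in ESCs, or 43.9% and 44.0% without ESC replicate 3. Of 8 condensin subunits, all tested, 0 were called in either direction (median log2 fold change 0.01, limma; 1 at an unadjusted p under 0.05, and 0 in limma voom), whereas without ESC replicate 3, 1 was higher in NPCs and 6 in ESCs (median -0.18). Of 5 tested Smc5/6 subunits, Smc5 was higher in NPCs (0.55, adjusted p = 0.00586) and Nsmce4a was higher in ESCs (-0.79, adjusted p = 0.0175, lost without NPC replicate 1 or 3), with a median of -0.20. Without NPC replicate 1 or 3, the log2 fold change of Nsmce4a stayed at -0.78 and -0.77. It was at -0.52 without ESC replicate 3 (adjusted p = 9.74e-06), where 1 of the 5 was higher in NPCs and 2 in ESCs, and the median turned to 0.06. Of 5 tested other architectural DNA-binding factors, Yy1 and Ldb1 were higher in NPCs (0.35 and 0.27, adjusted p = 0.0257 and 0.0288), with a median of 0.18. Both calls were lost without NPC replicate 1, 2 or 3, and that of Ldb1 also without ESC replicate 1 or 2. Fewer samples were tested there, and the log2 fold changes stayed at 0.33 to 0.37 (Yy1) and 0.25 to 0.28 (Ldb1). Of these factors, 2 were higher in NPCs and 1 in ESCs without ESC replicate 3. The germline paralogs Rec8 and Stag3 were the 2 of 5 tested and were higher in ESCs (-1.17 and -1.10, adjusted p = 2.27e-05 and 0.000126). Rec8, the meiotic counterpart of Rad21, had 1.37, 1.45 and 1.91 RPKM in ESCs and 0.122, 0.13 and 0.168 RPKM in NPCs. Both passed the filter only through the ESC samples.

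Markers of the cell types and of proliferation were compared in the same way. All 8 ESC markers were higher in ESCs, and Pou5f1 and Dppa5a had the largest falls on the scale of log2(RPKM + 1) (log2 fold changes -7.19 and -10.51). The 6 tested of 8 neural progenitor markers were higher in NPCs, led on this scale by Sox3 and Nes (2.92 and 2.83). On recovered reads all 8 were higher in NPCs (limma voom, where 43.6% of all genes were higher in NPCs and 28.8% in ESCs). Hes5 had the largest value (8.24), which is no exact fold change, since this gene was listed at 0 in all ESC samples. The summed level of the 8 neural progenitor markers per exonic kilobase was 15.4, 14.9 and 12.9 in ESCs and 112, 120 and 119 in NPCs. The most abundant of these markers in NPCs was Nes (44.7 ± 2.62, SD, n = 3). Of 8 mesoderm and endoderm markers 4 were tested and higher in NPCs, led by Gata6 and Gata4 (2.93 and 2.74). The summed level of these 8 was 6.07, 6.54 and 4.99 in ESCs and 146, 150 and 152 in NPCs, above that of the neural progenitor markers, with Gata4 as the most abundant (110 ± 1.97 in NPCs, SD, n = 3), and Afp was listed at 0 in all ESC samples. On recovered reads 6 were tested (limma voom): Gata4, Gata6, Sox17 and Foxa2 were higher in NPCs, whereas T and Eomes, which mark early mesoderm, were higher in ESCs (log2 fold changes -6.08 and -1.45, adjusted p = 3.86e-06 and 0.00129). The NPC samples thus held transcripts of these 4 genes, mostly of Gata4 and Gata6, beside neural ones, and their part in the values of the 9 genes was not tested. Most of these markers passed the filter of 1 RPKM only through the cell type in which they were higher (7 of the 8 ESC markers and, in NPCs, 4 of the 6 tested neural progenitor markers and all 4 tested mesoderm and endoderm markers), so their counts give no support for a direction.

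Neuron markers were higher in ESCs where tested (Stmn2 and Tubb3, -2.25 and -0.69; 2 of 5 tested, Stmn2 through the ESC samples only), with a summed level of 80.4, 86.4 and 106 in ESCs and 41.9, 34.0 and 40.4 in NPCs. Their most abundant gene was Stmn2 in ESCs and Tubb3 in NPCs, and Dcx was listed at 0 in all ESC samples. On recovered reads all 5 were tested, and 3 of them were higher in NPCs and 2 in ESCs (limma voom). Of all genes in this fit, 43.6% were higher in NPCs and 28.8% in ESCs. Of the 4 germ cell markers, Dazl was tested, through the ESC samples only, and higher in ESCs (-2.00), and the summed level was 16.2, 14.1 and 16.1 in ESCs and 0.205, 0.291 and 0.125 in NPCs. Of 15 proliferation genes, 12 were higher in ESCs (against 33.3% of all tested genes) and 1, Mki67, was higher in NPCs (against 36.9%). Mki67 was at 1.18 (limma adjusted p = 0.0182). Its call was lost without NPC replicate 1, 2 or 3 (adjusted p = 0.0508 to 0.0595), where the log2 fold change stayed at 1.14 to 1.21. Without ESC replicate 3, Mki67 was at 0.77 (adjusted p = 1.04e-05). Mcm5 and Ccnb1 had the largest falls (-1.35 and -1.22), and the median of the list was -0.61; without ESC replicate 3, 1 gene was higher in NPCs and 13 in ESCs (against 43.9% and 44.0% of all tested genes). The summed level of the list was 1297, 1319 and 1227 in ESCs and 799, 816 and 803 in NPCs. Its part in the lower levels of Esco2, Cdca5 and the shugoshins in NPCs was not tested.

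The position of the 9 genes was compared with nucleolus-associated domains (NADs), which the authors mapped in both cell types by Nucleolar-DamID, a method in which a DNA adenine methyltransferase fused to a nucleolar histone H2B marks contacts with the nucleolus. The NADs come from the transgenic lines under doxycycline and Shield1, and not from the cultures whose RNA was read. Positions are in GRCm38, and the score of a NAD is the authors' value for both of their experiments, without a replicate error. In ESCs 4 of the 9 genes overlapped a NAD, where 27.1% of 21402 genes did. In NPCs 8 of the 9 genes did, where 21.6% of genes did. The counts were the same by transcription start (23.6% and 18.9% of genes). Among the genes tested for expression, 23.1% in ESCs and 20.1% in NPCs overlapped a NAD. No test was made, since genes near each other share a domain and the genes were chosen by name.

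Stag1 (chr9:100597798-100959375), Nipbl (chr15:8290617-8444463), Pds5a (chr5:65605721-65698273) and Pds5b (chr5:150673739-150810690) lay in NADs of both cell types, the first 3 with their whole span and Pds5b with 126318 bases in each. The NADs at Stag1 had scores of 0.0794 in ESCs and 0.0962 in NPCs, at percentiles 95.9 and 95.1 of their lists. Of the 3 genes that were higher in NPCs, Nipbl and Pds5b were therefore in NADs of both cell types. Stag2 (chrX:42149317-42277185) was 250 kb from the nearest NAD in ESCs and wholly within a NAD of 1200 kb in NPCs (score 0.0408, percentile 47.6).

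Ctcf (chr8:105636568-105682922) was 1616 kb from the nearest NAD in ESCs and lay in a NAD of 801 kb in NPCs, with a score of 0.141 at percentile 99.6. Smc1a (chrX:152016428-152062694) and Rad21 (chr15:51962240-51991747) were 116 and 62.3 kb from a NAD in ESCs and within a NAD in NPCs. The NAD at Rad21 in NPCs was 99.5 kb long and began at 51899980, next to the end of the ESC NAD at 51899979. The distance of 62.3 kb is below the resolution that the paper states for its maps. Smc3 (chr19:53600398-53645833) was outside in both, 254 and 255 kb from the nearest NAD. Ctcf, Stag2, Smc1a and Rad21 were thus in NADs of NPCs only, and in the tested comparison of 6 samples Stag2 alone of these 4 passed the test. Without ESC replicate 3, Stag2 (0.66) and Ctcf (-0.37) passed, in opposite directions (limma adjusted p = 1.95e-06 and 0.000116).

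Promoter sequences of RefSeq (GRCm38.p6) matched 6 of the 9 genes; Rad21, Stag2 and Nipbl were not matched. The PDS5 paralogs are shown because their shares differed between the cell types. The stretches run 5′ to 3′ on the strand of the gene up to the first base of an annotated exon, with matches to GGGCGG (the GC box) and GGCGGGAA (an E2F-type element) on either strand in capitals.
Pds5a, chr5:65698274-65698486, minus strand: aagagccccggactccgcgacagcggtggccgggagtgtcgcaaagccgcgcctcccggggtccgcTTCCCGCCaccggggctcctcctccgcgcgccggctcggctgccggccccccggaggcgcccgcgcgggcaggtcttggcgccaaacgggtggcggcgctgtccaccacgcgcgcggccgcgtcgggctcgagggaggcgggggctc
Pds5b, chr5:150673577-150673738, plus strand: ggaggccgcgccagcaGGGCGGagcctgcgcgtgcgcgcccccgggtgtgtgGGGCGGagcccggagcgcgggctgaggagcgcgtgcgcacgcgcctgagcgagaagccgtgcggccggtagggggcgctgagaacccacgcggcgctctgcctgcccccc
The stretch of Pds5b held 2 matches to GGGCGG, and 18.1% of 27025 promoters hold at least 1 in the same stretch. That of Pds5a held 0, where 27.4% of promoters hold at least 1. Pds5a held 1 match to GGCGGGAA and Pds5b held 0, where 1.52% and 1.01% of promoters hold at least 1 in these stretches. Neither stretch held a match to the TATA box TATAAA, and none was found to the other motifs searched, which were the CCAAT box, the E-box CACGTG and the ETS-type element CCGGAAG. The matches describe the letters of these stretches and not binding.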

How the data were processed

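The RPKM values were deposited by the authors in 1 table per cell type, from polyA-selected RNA. The methods name a stranded TruSeq kit, and the labels another TruSeq kit with no mention of strand. Sequencing was paired end or single end per the methods, which do not say for which samples, and single end per the paper's reporting summary. Per the methods, rRNA reads were filtered (SortMeRNA), adapters trimmed (Trimmomatic) and reads mapped to mm10 (STAR), and the authors derived exon coverage of each gene by a custom procedure; the processing notes of the labels name Bowtie2 and Subread instead. Which annotation they used, and whether strand was used in counting, is not given in the sources used. The NAD score, 1 value per NAD for both experiments, was deposited by the authors from the damidseq pipeline and find_peaks.

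The 9 genes and the other lists were chosen with earlier results of these data known. A symbol on several lines (153 of 21909) kept the line with the highest mean. Genes above 1 RPKM in at least 3 of the 6 samples (7835) were compared, NPC against ESC, as log2(RPKM + 1) by the moderated linear model of limma 3.58.1 with an intensity trend (R 4.3.3), with Benjamini-Hochberg adjustment over all of them and a threshold of 0.05. Fold changes on this scale understate the change of genes with low RPKM. Genes were placed by GENCODE M21, which named 21597 of the symbols. Whole reads were recovered from RPKM, gene span and the value of 1 read, and tested with voom of the same package. Ratios within samples were compared by two-sided exact permutation tests. NAD starts count from 0 in the lists and were raised by 1. The remaining steps ran in Python 3.11.15 (numpy 2.4.6, pandas 2.3.3, matplotlib 3.10.9). Both limma fits were tested on simulated data, where the share of false calls pooled over draws lay above the threshold of 0.05. The simulated samples did not have the shift of ESC replicate 3, so this share does not describe the fits that hold that sample.

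Named genes were all 9 members, all other mitotic cohesin regulators, the 2 called genes that rose most and the 2 that fell most in each other list, and the 5 tested genes most correlated with Ctcf and with the member of largest fold change; Esco1 and Hdac8 are named as members of a list, and listed zeros (Hes5, Afp, Dcx) and the most abundant markers by their level, and Sox17, Foxa2, T and Eomes to show which markers moved which way. Alternatives were other pseudocounts, filters and scalings, no trend, summed lines, the replicate number as a block, each sample left out, and NADs by transcription start or score. Reads with voom (with and without ESC replicate 3) and RPKM per exonic kilobase were added after seeing the data, when the RPKM were found to use the gene span and not, as assumed, exonic length. ChIPseq samples were not used here.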

Additional observations from a re-analysis of the deposited data

How the results depend on the processing

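The number of genes called differed with another filter, scale or set of samples; beyond the filters themselves, the cause was not tested. Genes higher in NPCs numbered 2894, against 7245 over all genes above 0, 595 over genes with a mean of at least 5 RPKM, 5478 with voom on recovered reads, 6309 with voom without ESC replicate 3 and 5120 per exonic kilobase. Genes higher in ESCs numbered 2606, against 4209 over all genes above 0, 1205 with a mean of at least 5 RPKM and 4837 with voom without ESC replicate 3. With a mean of at least 5 RPKM, 0 of the 9 genes were higher in NPCs, since that filter left only Smc1a, Smc3 and Rad21. With voom without ESC replicate 3, 3 of the 9 were higher in ESCs.

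When each sample was left out in turn, between 2517 and 3437 genes were higher in NPCs and between 2093 and 3447 in ESCs; among the 9 genes it was between 2 and 3 and between 0 and 2, the latter without ESC replicate 3. Without ESC replicate 3 and without ESC replicate 1, the ends of the range, Smc1a was -0.022 and 0.1081, Smc3 -0.0854 and 0.1386, Rad21 -0.0738 and 0.3511, and Pds5a -0.2329 and 0.2169; Pds5a was -0.31 with voom without ESC replicate 3; how the sample came to differ was not tested. The ratios kept their direction in all alternatives run: the Stag1 share differed by -24.38 to -12.27 percentage points, that of Pds5a by -18.37 to -8.88, and the Ctcf ratio by -0.39 to -0.31. NAD counts of the 9 genes were 4 in ESCs in all settings, and 8 in NPCs or 7 with scores at or above the median. With that score cut, 16.5% of genes in ESCs and 12.3% in NPCs overlapped a NAD. Median scaling raised the median log2 fold change of all genes from 0.02 to 0.18, with 3382 genes higher in NPCs and 2067 in ESCs. Under it, 3 of the 9 genes were still called higher in NPCs. Smc1a was then 0.2262, Smc3 0.2126, Rad21 0.3934, Pds5a 0.2012 and Ctcf -0.0277. None of these 5 was called (limma adjusted p = 0.0804, 0.189, 0.183, 0.471 and 0.888).

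With the replicate number as a block, 2754 and 2460 genes and 3 and 0 of the 9 genes were called; among the genes named, Yy1 and Ldb1 lost and Pttg1 gained a call. Numbers did not pair the samples: deviations of same-numbered samples had r = 0.11, -0.08 and 0.03. Each group had 3 samples, of which 1 ESC sample stood apart. Some markers had few reads in the cell type where they were low (Sox3 had 24, 16 and 18 in ESCs), so depth limits their fold changes. Over 38 of the genes named (not the correlated genes, Sox17, Foxa2, T, Eomes, Hes5, Afp and Dcx), 9 of 621 values under an alternative turned direction: Smc1a, Smc3 and Rad21 without ESC replicate 3 (with voom -0.0255, -0.0994 and -0.0783; none called), and Pds5a there and with quantile normalization (-0.0906); 20 lost and 13 gained a call.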
